A study of Homo sapiens with 18 samples.

Results

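The genes described here are 9 members of the BCL2 family together with TNFRSF10B, which encodes death receptor 5. They were chosen by name, for their place in the cell death machinery, as 10 of the 25435 rows of a gene count table. Earlier results of these data were known when the choice was made. The family members were the cell death inhibitors BCL2, BCL2L1 and MCL1, the pore formers BAX and BAK1, and the BH3-only genes BID, BCL2L11, BBC3 and PMAIP1. All 10 had counts in each of the 18 libraries and passed the filter on low counts in each of the 11 comparisons, and their lowest count in any library was 264 reads, for BCL2.

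The cells were HEK293doxERN2, a human embryonic kidney line with a doxycycline-driven transgene for FLAG-tagged ERN2 (also called IRE1β), an ER stress sensor found in mucosal epithelium. Doxycycline was left out (No ERN2) or given for 24 hours at 10 ng/mL (Low ERN2) or 100 ng/mL (High ERN2). At each of these doses, cells received either the solvent DMSO (control) or 200 nM thapsigargin (stress) for 3 hours, with 3 libraries in each of the 6 groups. All groups carry the transgene, the No ERN2 groups had no doxycycline, and the doxycycline dose and the amount of ERN2 cannot be told apart. The labels do not say that the libraries of a group came from separate cultures, so p-values measure the spread between these libraries, which may be technical.

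The BCL2 family decides whether the outer membrane of the mitochondrion is opened. BAX and BAK1 form the pore, BCL2, BCL2L1 (BCL-xL) and MCL1 hold them in check, and the BH3-only proteins BID, BCL2L11 (BIM), BBC3 (PUMA) and PMAIP1 (NOXA) bind the inhibitors or the pore formers and tip the balance towards death. Death receptor 5, a receptor of the ligand TRAIL at the cell surface, activates caspase 8, which cuts BID and so links both routes. Thapsigargin blocks the calcium pump of the ER and starts the unfolded protein response, whose PERK branch acts through the transcription factors ATF4 and CHOP (DDIT3). TNFRSF10B, BCL2L11 and PMAIP1 are known targets of that branch in many cell types, whereas ERN2 and its relative ERN1 are endonucleases that cut XBP1 mRNA and, to differing degrees, other mRNAs.

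Library totals ran from 14876416 to 24652240 counts. ERN2, the check of the labels, stood between 6.57 and 14.2 CPM (counts scaled to library size) in the 6 No ERN2 libraries, between 22.5 and 112 CPM in the 6 Low ERN2 libraries, and between 175 and 309 CPM in the 6 High ERN2 libraries. The 3 stressed High ERN2 libraries had the widest scatter of gene levels around their group mean (SD 0.299 to 0.362 on the log2 scale, against 0.186 to 0.291 in the other 15), and replicate 1 of that group stood farthest off. The extraction text in the labels speaks of colon crypt cells, whereas all 7 markers of the HEK293 line were over 1 CPM (summed level 1843 to 2813 CPM) and 2 of 10 markers of colon crypt epithelium were (summed level 14.3 to 39.9 CPM, with 1 marker at 0 in each library). VIM alone averaged 1798 CPM, so the summed level of the HEK293 markers was largely that of 1 gene. Of 5 leukocyte markers 1 was over 1 CPM, with a summed level of 0.569 to 2.66 CPM.

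Per kilobase of merged exons in GENCODE release 29, PMAIP1 was the most abundant member in No ERN2 control cells, at 131 CPM per kilobase. MCL1 followed at 65.1, BAX at 44.5 and TNFRSF10B at 31.7 CPM per kilobase. BAK1 stood at 16.4, BCL2L1 at 12.9, BCL2L11 at 9.58, BID at 8.58 and BBC3 at 6.78 CPM per kilobase. BCL2 was the least abundant, at 1.81 CPM per kilobase over a merged exon length of 11765 bases. The annotation behind the counts is not given in the sources used here, so these lengths need not be those the reads were counted on.

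Among the 10 members, TNFRSF10B alone passed the threshold (edgeR quasi-likelihood test, Benjamini-Hochberg adjusted p under 0.01 over all genes tested), and it did so in 3 of the 11 comparisons, each time lower with High ERN2. The response to thapsigargin was tested at each dose. In No ERN2 cells 0 of 10 members passed in edgeR, where 11.2% of the 14397 genes tested did, while 3 members had an unadjusted p under 0.05 (35.9% of all genes) and DESeq2 called 1, BCL2L11, with 16.4% of its genes. In Low ERN2 cells 0 of 10 passed in edgeR, where 1.45% of 14607 genes did, while 3 had an unadjusted p under 0.05 (24.7% of all genes) and DESeq2 called 0, with 7.8% of its genes. In High ERN2 cells 0 of 10 passed in edgeR, where 0.201% of 14427 genes did, while 4 had an unadjusted p under 0.05 (27% of all genes) and DESeq2 called 1, PMAIP1, with 5.64% of its genes. The stressed and control libraries did not overlap for 2 members without doxycycline (40% of all genes), for 4 at the low dose (28.5%) and for 4 at the high dose (25.8%).

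The effect of induction was tested in control and in stressed cells. High against No ERN2 gave 1 of 10 members in control cells, where 8.33% of 14444 genes passed, and 1 of 10 in stressed cells, where 10.5% of 14358 genes passed. DESeq2 called 1 and 2 members there, with 10.8% and 16.5% of its genes, and 3 and 4 members had an unadjusted p under 0.05 (29.3% and 35.6% of all genes). High against Low ERN2 gave 1 of 10 members in stressed cells, where 5.55% of 14493 genes passed, with 2 at an unadjusted p under 0.05 (31.6%) and 1 called by DESeq2 (11.8%). In control cells High against Low ERN2 gave 0 of 10 in edgeR, where 2.45% of 14549 genes passed, with 2 members at an unadjusted p under 0.05 (16.1% of all genes) and 1, TNFRSF10B, called by DESeq2 (5.7%). Low against No ERN2 gave 0 of 10 in control cells in edgeR, where 0.193% of 14497 genes passed, with 4 members at an unadjusted p under 0.05 (30.5% of all genes) and 0 called by DESeq2 (3.21%). Low against No ERN2 gave 0 of 10 in stressed cells as well, where 0% of 14509 genes passed in edgeR, with 1 member at an unadjusted p under 0.05 (4.22% of all genes) and 0 called by DESeq2 (0.342%). The libraries of both groups did not overlap for 2 members in High against No ERN2 control cells (35.8% of all genes) and 4 in stressed cells (36.5%), for 3 in High against Low ERN2 control cells (22.9%) and 5 in stressed cells (31.4%), and for 2 in Low against No ERN2 in control cells (29.8%) and in stressed cells (10%).

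Whether the dose altered the response to thapsigargin was tested as an interaction over 12 libraries. For High ERN2, 0 of 10 members passed in edgeR, where 0.0406% of 14768 genes did, with 3 at an unadjusted p under 0.05 (24.7% of all genes) and 0 called by DESeq2 (2.88%). For Low ERN2, 0 of 10 passed in edgeR, where 0% of 14857 genes did, with 0 at an unadjusted p under 0.05 (4.47% of all genes) and 0 called by DESeq2 (0.00968%). On simulated counts the interaction test in edgeR recovered 2% of genes changed by 2-fold over 14691 genes, against 83.7% for High against No ERN2 in control cells over 14407 genes. Of genes changed by 1.5-fold the latter recovered 22% and the interaction 0%. DESeq2 recovered 40% of the 2-fold and 7% of the 1.5-fold changes in the simulated interaction over 20233 genes, with 6% of its 50 calls false.

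**Figure D1:**
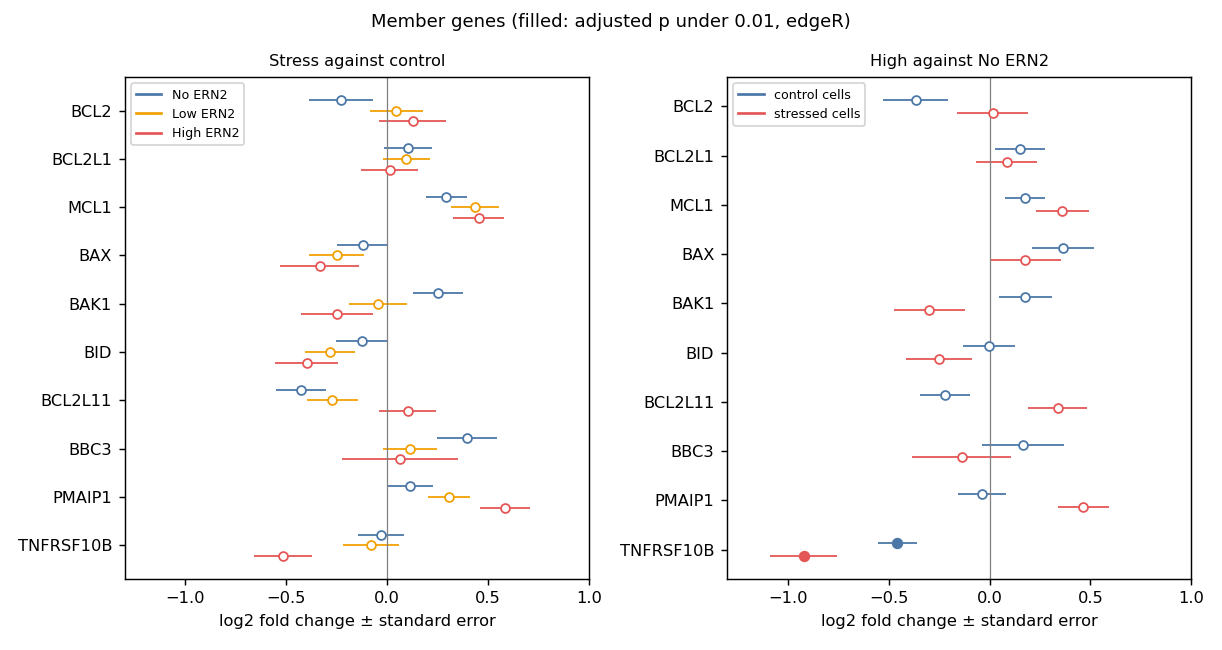
Log2 fold changes with standard errors of the 10 members (rows), for stress against control at each dose (left) and for High against No ERN2 in control and stressed cells (right); filled points have an adjusted p under 0.01 in edgeR. TNFRSF10B holds the only filled points, at -0.46 and -0.92, and the other 9 members lie between -0.43 and 0.58.

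TNFRSF10B, on the minus strand at chr8:23020133-23069179 (GRCh38, GENCODE release 29), was lower in both High ERN2 groups than in the other 4 groups. In No ERN2 cells it stood at 164, 162 and 165 CPM in the control libraries and at 162, 179 and 136 CPM in the stressed ones. In Low ERN2 cells it stood at 165, 186 and 157 CPM in the control libraries and at 165, 185 and 132 CPM in the stressed ones. In High ERN2 cells it stood at 123, 126 and 118 CPM in the control libraries and at 99.6, 73.9 and 79.5 CPM in the stressed ones. The 3 stressed High ERN2 libraries lay below all other libraries, the 3 control High ERN2 libraries came next, and the remaining 12 libraries overlapped between 132 and 186 CPM. These are bulk libraries, in which fewer cells with the transcript and less of it per cell cannot be told apart.

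In control cells TNFRSF10B fell from 164 ± 1.75 CPM in No ERN2 cells to 123 ± 4.16 CPM in High ERN2 cells (mean ± SD, n = 3), a log2 fold change of -0.46 (SE 0.0967, adjusted p = 0.00599 in edgeR) and a fall of 1.37-fold. In stressed cells it fell from 159 ± 21.8 to 84.3 ± 13.5 CPM, a log2 fold change of -0.92 (SE 0.166, adjusted p = 0.00183 in edgeR) and a fall of 1.89-fold. Against stressed Low ERN2 cells, which held 161 ± 26.4 CPM, the log2 fold change was -0.92 (SE 0.173, adjusted p = 0.00405 in edgeR). Against Low ERN2 control cells it was -0.49 (SE 0.106, adjusted p = 0.0224 in edgeR), which did not pass in edgeR. Of all genes tested, 7.49% were called lower in High against No ERN2 control cells, 9% in High against No ERN2 stressed cells and 5.32% in High against Low ERN2 stressed cells. Within control and within stressed cells, the comparisons with No and Low ERN2 share the High ERN2 libraries.

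The TNFRSF10B call in control cells was lost with all 6 groups in 1 fit (adjusted p = 0.0328 in edgeR) and with library totals in place of TMM (0.0110). It was also lost with the replicate number as a block (0.0530). Leaving out any 1 of 5 of the 6 libraries lost it as well (0.0119 to 0.0422), the sixth being High ERN2 control replicate 2. In stressed cells the call was lost without No ERN2 replicate 1 (adjusted p = 0.0127), No ERN2 replicate 2 (0.0130) or High ERN2 replicate 2 (0.0172), while the log2 fold change stayed between -1.04 and -0.81 with any of the 6 libraries left out. Against stressed Low ERN2 cells it was lost without Low ERN2 replicate 1 or 2 or High ERN2 replicate 2 or 3 (adjusted p = 0.0154 to 0.0540 in edgeR). The replicate number as a block lost this call too (adjusted p = 0.0164 in edgeR). In a test added after the data were seen, with labels exchanged within control and within stressed cells, High and No ERN2 differed by -0.67 on the log2 CPM scale, with an exact two-sided permutation p = 0.005, the smallest that 400 arrangements can give. High and Low ERN2 differed by -0.69 with the same exact permutation p = 0.005, and Low and No ERN2 by 0.03 (exact permutation p = 0.775).

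Thapsigargin gave TNFRSF10B log2 fold changes of -0.03 (95% interval -0.25 to 0.19) in No ERN2 cells and -0.08 (-0.35 to 0.19) in Low ERN2 cells, with overlapping libraries at both doses. In High ERN2 cells the log2 fold change was -0.52 (SE 0.146, adjusted p = 0.0767 in edgeR), with the 3 stressed libraries below the 3 control ones. Without stressed High ERN2 replicate 1, the library that stood farthest off, this value was -0.68 (adjusted p = 0.00205 in edgeR), and the calls over all genes rose from 29 to 2568. The difference between the responses in High and No ERN2 cells was -0.40 (SE 0.183, unadjusted p = 0.0437, adjusted p = 0.190 in edgeR), and in Low and No ERN2 cells -0.04 (unadjusted p = 0.840). Low against No ERN2 gave TNFRSF10B log2 fold changes of 0.04 (95% interval -0.15 to 0.24) in control cells and 0.00 (-0.29 to 0.30) in stressed cells.

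**Figure D2:**
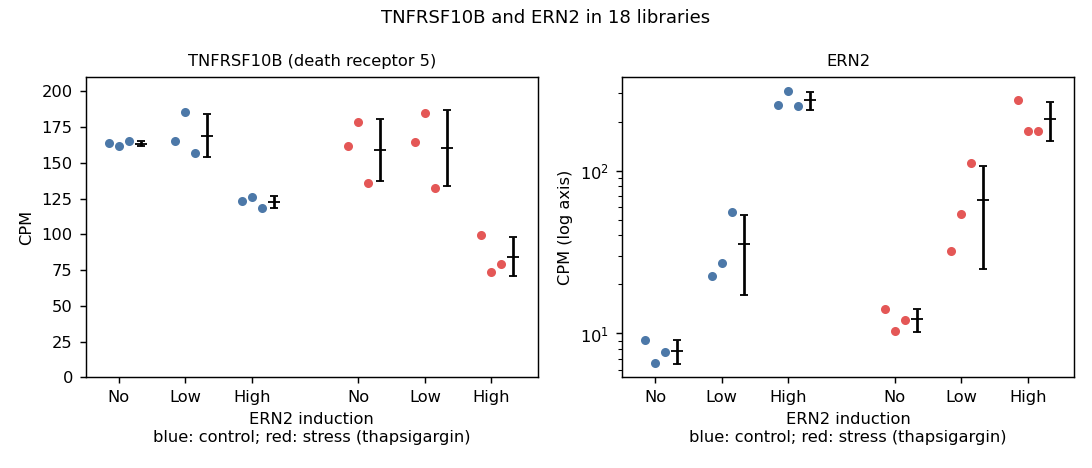
TNFRSF10B (left, linear axis) and ERN2 (right, log axis) in CPM in each of the 18 libraries by ERN2 induction, control in blue and stress in red; bars give the mean and SD of 3 libraries. TNFRSF10B lies at 73.9 to 126 CPM in the 6 High ERN2 libraries and at 132 to 186 CPM in the other 12, while ERN2 rises to 175 to 309 CPM in the High ERN2 libraries.

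From lowest to highest, the order of the TNFRSF10B group means ran from High ERN2 stress (84.3 CPM) through High ERN2 control (123), No ERN2 stress (159), Low ERN2 stress (161) and No ERN2 control (164) to Low ERN2 control (169 CPM). The 2 High ERN2 groups were each separated from the next by non-overlapping libraries, and the upper 4 groups overlapped. Over the 6 group means of log2 CPM, the genes most like TNFRSF10B among 15022 were REEP6 (Pearson r = 0.999), B4GALNT3 (0.998), GRID1 (0.998), UBAC2 (0.997) and PCDH1 (0.997). This is a description over 6 points that share their libraries and normalization. Of these, UBAC2 held 50.1 CPM in No ERN2 control cells and 39.0 in High ERN2 control cells, and 49.3 and 25.4 CPM under stress.

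The letters CTGCAG are a form of the site at which IRE1 enzymes cut mRNA, and they read the same on both strands. They were counted in each member's principal GENCODE transcript, and other forms of the site were not searched. TNFRSF10B held 0 matches in 4146 bases, as did MCL1 in 3932 and BCL2L1 in 2610 bases. BCL2L11 held 3 matches in 1522 bases, and the other 6 members held 1 to 3. Of 19656 principal transcripts, 82.1% held a match, with a median of 0.720 per kilobase. No match says only that these letters are not in these transcripts, and does not show that a transcript lacks a site for IRE1 enzymes. In the annotation, TNFRSF10B also overlaps RHOBTB2 by 67 bases and AC107959.2 by 951 bases on the other strand, and how strand was treated in counting is not given in the sources used here.

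MCL1, a short-lived inhibitor that NOXA binds, was higher in the stressed libraries than in the control ones at each dose. Without doxycycline it stood at 258, 303 and 292 CPM in control libraries and at 340, 341 and 358 CPM in stressed ones. At the low dose it stood at 262, 242 and 297 CPM and at 368, 337 and 382 CPM. At the high dose it stood at 345, 318 and 330 CPM and at 399, 428 and 511 CPM. The groups did not overlap at any dose, and the highest stressed library was High ERN2 replicate 3. The log2 fold changes were 0.29 (SE 0.10, adjusted p = 0.0505), 0.44 (SE 0.117, 0.0527) and 0.45 (SE 0.126, 0.0757) at No, Low and High ERN2 in edgeR, none past the threshold. With labels exchanged within each dose, the stressed libraries were higher by 0.38 on the log2 CPM scale, with an exact two-sided permutation p = 0.00025, the smallest that 8000 arrangements can give. Any gene whose libraries separate in the same direction at each dose reaches this value. Libraries did not overlap for 40%, 28.5% and 25.8% of all genes at No, Low and High ERN2. The share of genes that separate at all doses was not counted.

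Among control cells MCL1 was highest with High ERN2, at a log2 fold change of 0.29 against Low ERN2 (SE 0.106, adjusted p = 0.198) and 0.17 against No ERN2 (SE 0.10, adjusted p = 0.272 in edgeR). Among stressed cells it was highest with High ERN2 as well, at 0.36 against No ERN2 (SE 0.130, adjusted p = 0.0664) and 0.30 against Low ERN2 (SE 0.144, adjusted p = 0.168 in edgeR). The stressed High ERN2 libraries of MCL1 lay above all 15 others. Without stressed High ERN2 replicate 1, MCL1 was called higher both against High ERN2 control cells (log2 fold change 0.50, adjusted p = 0.00807) and against stressed No ERN2 cells (0.45, adjusted p = 0.00994 in edgeR). In the former fit the calls over all genes rose from 29 to 2568. For stressed High against No ERN2 cells, calls over all genes ran from 763 to 3950 with 1 library left out (1512 as reported). With labels exchanged within control and within stressed cells, High ERN2 differed in MCL1 by 0.29 from No ERN2 and by 0.30 from Low ERN2 (exact permutation p = 0.005 in both, the smallest possible), and Low and No ERN2 by -0.02 (exact permutation p = 0.835).

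BCL2, the founding inhibitor of the family, was low throughout, between 15.6 and 26.1 CPM. In No ERN2 control cells it stood at 17.5, 26.1 and 20.4 CPM, the highest of the group means at 21.3 ± 4.38 CPM (n = 3). In Low ERN2 control cells it stood at 16.3, 16.0 and 16.4 CPM, and in High ERN2 control cells at 16.7, 15.7 and 18.8 CPM. The Low ERN2 control libraries lay below the No ERN2 ones, whereas the High ERN2 ones overlapped them. The log2 fold changes against No ERN2 control cells were -0.39 for Low ERN2 (SE 0.158, adjusted p = 0.123) and -0.37 for High ERN2 (SE 0.161, adjusted p = 0.153 in edgeR), and both share the No ERN2 control libraries. Under stress the 9 libraries of BCL2 ran from 15.6 to 20.2 CPM with no separated neighbours among the group means.

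BCL2L1, which encodes the inhibitor BCL-xL, varied least of the 10 members by the ratio of its group means. Its 18 libraries ran from 39.0 to 54.3 CPM, and the highest group mean was 1.14-fold the lowest. It had no unadjusted p under 0.05 in any of the 11 comparisons, and no neighbours in the order of its group means were separated. The corresponding ratios of highest to lowest group mean were 1.67 for MCL1 and 2.01 for TNFRSF10B. BCL2L1 overlaps the antisense genes ABALON and AL117381.1 in the annotation, so that antisense reads could enter its count.

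BAX, the pore former that moves from the cytosol to the mitochondrion, was higher with doxycycline in control cells, though its libraries overlapped. In No ERN2 control cells BAX stood at 138, 103 and 104.1 CPM, in Low ERN2 control cells at 137, 172 and 166 CPM, and in High ERN2 control cells at 138, 185 and 135 CPM. The No ERN2 replicate 1 lay inside the range of both induced groups. The log2 fold changes were 0.45 for Low against No ERN2 (SE 0.136, adjusted p = 0.0825) and 0.37 for High against No ERN2 (SE 0.154, adjusted p = 0.138 in edgeR). Without Low ERN2 control replicate 1, BAX was called higher in the former (0.54, adjusted p = 0.00415 in edgeR), and the calls over all genes rose from 28 to 2743.

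In stressed cells BAX stood at 99.2, 112 and 104.1 CPM with No ERN2, at 115, 135 and 151 CPM with Low ERN2 and at 148, 117 and 91.4 CPM with High ERN2. The Low ERN2 libraries lay above the No ERN2 ones and the High ERN2 libraries spanned both groups. Low against No ERN2 gave a log2 fold change of 0.33 (SE 0.123, adjusted p = 0.978 in edgeR). In this comparison same-numbered libraries deviated together for each of the 3 numbers, and with the replicate number as a block BAX was called higher (log2 fold change 0.33, adjusted p = 0.00294 in edgeR) among 564 genes called, 3.89% of those tested. BAX was the only member called in the blocked fit. Over both conditions Low and No ERN2 differed in BAX by 0.40 on the log2 CPM scale (exact permutation p = 0.01, labels exchanged within control and within stressed cells), High and No ERN2 by 0.28 (p = 0.085) and High and Low ERN2 by -0.12 (p = 0.4), all unadjusted.

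BAK1, the pore former that resides in the mitochondrial membrane, ran from 29.1 to 48.9 CPM with overlapping neighbours in the order of its group means. Its value nearest the threshold was for Low against No ERN2 in control cells, where it stood at 37.5, 48.1 and 48.0 CPM and at 38.6, 33.3 and 36.6 CPM. The libraries overlapped, and the log2 fold change was 0.30 (SE 0.133, adjusted p = 0.156 in edgeR). In stressed High ERN2 cells BAK1 stood at 42.7, 29.1 and 32.7 CPM, with replicate 1 highest as it was for BAX. BAK1 lies within the pseudogene GGNBP1 on the other strand.

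PMAIP1 encodes NOXA, a BH3-only protein that binds MCL1, and lies on the plus strand at chr18:59899948-59904306 (GRCh38). The 202 bases before its first annotated exon are shown because PMAIP1 was the BH3-only member with the largest response to thapsigargin in High ERN2 cells and the only one of the members searched with a promoter match to the core of the ATF and CREB element. Of the 10 members, 8 had entries in the RefSeq promoter table (GRCh38.p14), and MCL1 and TNFRSF10B are named only. The letters searched on both strands were TGACGT (ATF and CREB core, in 7.1% of 35116 promoters), TGACGTCA (full CRE, 1.65%), TGATGNAAT (composite of C/EBP and ATF, 0.888%), TGACGTGG (0.612%), the ER stress element (0.074%) and CCAAT (32.0%). The full CRE and the element TGACGTGG contain the core, and the ER stress element contains CCAAT. In PMAIP1 the core lay 56 bases before the RefSeq start on the minus strand, so it reads ACGTCA, in capitals, in the plus strand sequence of chr18:59899746-59899947.
PMAIP1 upstream: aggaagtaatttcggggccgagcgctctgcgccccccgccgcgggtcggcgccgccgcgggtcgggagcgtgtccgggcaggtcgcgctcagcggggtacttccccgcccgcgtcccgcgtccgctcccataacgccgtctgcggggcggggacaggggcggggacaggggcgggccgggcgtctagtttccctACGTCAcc
Neither the full CRE, the composite, TGACGTGG nor the ER stress element was found in the 13 promoter entries of the 8 members. A match is a description of the letters and not evidence of binding.

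PMAIP1 was highest in stressed High ERN2 cells. Without doxycycline it stood at 275, 343 and 258 CPM in control libraries and at 307, 309 and 323 CPM in stressed ones. At the low dose it stood at 285, 279 and 256 CPM and at 332, 331 and 353 CPM. At the high dose it stood at 314, 288 and 278 CPM and at 393, 420 and 486 CPM. The stressed libraries overlapped the control ones without doxycycline and lay above them at both doses, and the 3 stressed High ERN2 libraries lay above all 15 others.

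The response of PMAIP1 to thapsigargin was 0.11 in No ERN2 cells (SE 0.114, adjusted p = 0.525 in edgeR). It was 0.30 in Low ERN2 cells (SE 0.103, adjusted p = 0.106) and 0.58 in High ERN2 cells (SE 0.124, adjusted p = 0.0366 in edgeR), the last being 1.5-fold. DESeq2 called the High ERN2 response (adjusted p = 0.00233), as did edgeR with all 6 groups in 1 fit (0.00233) and without stressed High ERN2 replicate 1 (log2 fold change 0.63, adjusted p = 0.00225). Leaving out that library raised the calls over all genes from 29 to 2568. In stressed cells PMAIP1 was 0.46 higher on the log2 scale with High than with No ERN2 (SE 0.127, adjusted p = 0.0219 in edgeR, 0.00866 in DESeq2) and 0.36 higher with High than with Low ERN2 (SE 0.138, adjusted p = 0.0976 in edgeR). The difference between the responses in High and No ERN2 cells was 0.56 (SE 0.168, unadjusted p = 0.00484, adjusted p = 0.0887 in edgeR). With labels exchanged within each dose, stressed and control libraries differed in PMAIP1 by 0.33 (exact two-sided permutation p = 0.001).

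BCL2L11 encodes BIM, a BH3-only protein that binds all the main inhibitors, and starts on chromosome 2 within the antisense gene MIR4435-2HG. The sequence before its RefSeq start, chr2:111120664-111120913 on the plus strand (GRCh38.p14), is shown for comparison with PMAIP1. The reason was that both genes' log2 fold changes with thapsigargin differed in sign at No and Low ERN2 but not at High ERN2. In GENCODE the gene BCL2L11 spans chr2:111119378-111168447. The printed sequence therefore lies inside the GENCODE gene and is upstream of that RefSeq start only, unlike the one shown for PMAIP1. The BCL2L11 sequence holds no ATF and CREB core. It holds 1 CCAAT box 58 bases before the RefSeq start, on the minus strand, so that the box reads ATTGG, in capitals.
BCL2L11 upstream: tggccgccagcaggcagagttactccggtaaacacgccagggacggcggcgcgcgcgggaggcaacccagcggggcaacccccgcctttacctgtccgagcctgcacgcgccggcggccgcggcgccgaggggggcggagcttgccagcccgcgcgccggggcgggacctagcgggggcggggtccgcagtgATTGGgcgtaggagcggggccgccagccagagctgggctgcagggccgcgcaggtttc
CCAAT also occurs in the entries of BAK1, BBC3 and BAX.

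BCL2L11 was lower in stressed than in control libraries without doxycycline, at 48.4, 43.4 and 49.5 CPM against 64.2, 72.2 and 54.9 CPM. At the low dose it stood at 50.0, 42.2 and 53.5 CPM under stress and at 58.9, 59.8 and 56.5 CPM in control cells. At the high dose it stood at 57.4, 54.7 and 66.7 CPM under stress and at 56.3, 53.2 and 59.6 CPM in control cells. The stressed libraries lay below the control ones at No and Low ERN2 and overlapped them at High ERN2. The log2 fold change in No ERN2 cells was -0.43 (SE 0.125, adjusted p = 0.0257 in edgeR, 0.00839 in DESeq2). In stressed cells BCL2L11 was higher with High than with No ERN2, at 0.34 (SE 0.147, adjusted p = 0.121 in edgeR), without overlap. The difference between the responses in High and No ERN2 cells was 0.61 (SE 0.177, unadjusted p = 0.00365, adjusted p = 0.0831 in edgeR). Whether reads of MIR4435-2HG enter the BCL2L11 count was not tested.

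BID, which caspase 8 cuts to join the receptor and the mitochondrial routes, was lower under stress in Low and High ERN2 cells. In Low ERN2 cells it stood at 42.2, 43.0 and 44.1 CPM in control libraries and at 34.7, 32.7 and 39.2 CPM in stressed ones. In High ERN2 cells it stood at 35.05, 42.0 and 40.5 CPM and at 31.6, 29.9 and 26.2 CPM. The groups did not overlap at either dose, whereas in No ERN2 cells (34.9 to 41.7 CPM in control and 31.3 to 39.9 CPM in stressed libraries) they did. The log2 fold changes were -0.28 at the low dose (SE 0.123, adjusted p = 0.188) and -0.40 at the high dose (SE 0.154, adjusted p = 0.141 in edgeR). With labels exchanged within each dose, stressed and control libraries differed in BID by -0.28 (exact two-sided permutation p = 0.002). With labels exchanged within control and within stressed cells, High ERN2 differed in BID by -0.21 from Low ERN2 (exact permutation p = 0.005, the smallest possible) and by -0.10 from No ERN2 (p = 0.32), and Low from No ERN2 by 0.11 (p = 0.185).

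BBC3, which encodes PUMA and is a known p53 target, ran from 16.4 to 36.5 CPM. In stressed High ERN2 cells it stood at 36.5, 23.8 and 16.4 CPM, so that this group alone held both the highest and the lowest library. In No ERN2 cells it stood at 26, 20.9 and 17.8 CPM in control libraries and at 30.4, 25.6 and 28.5 CPM in stressed ones, which overlapped. The log2 fold change was 0.39 (SE 0.148, adjusted p = 0.0724 in edgeR). In Low ERN2 control cells it stood at 24.5, 31.2 and 28.7 CPM, a log2 fold change of 0.38 against No ERN2 control cells (SE 0.159, adjusted p = 0.135 in edgeR), again with overlap.

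**Figure D3:**
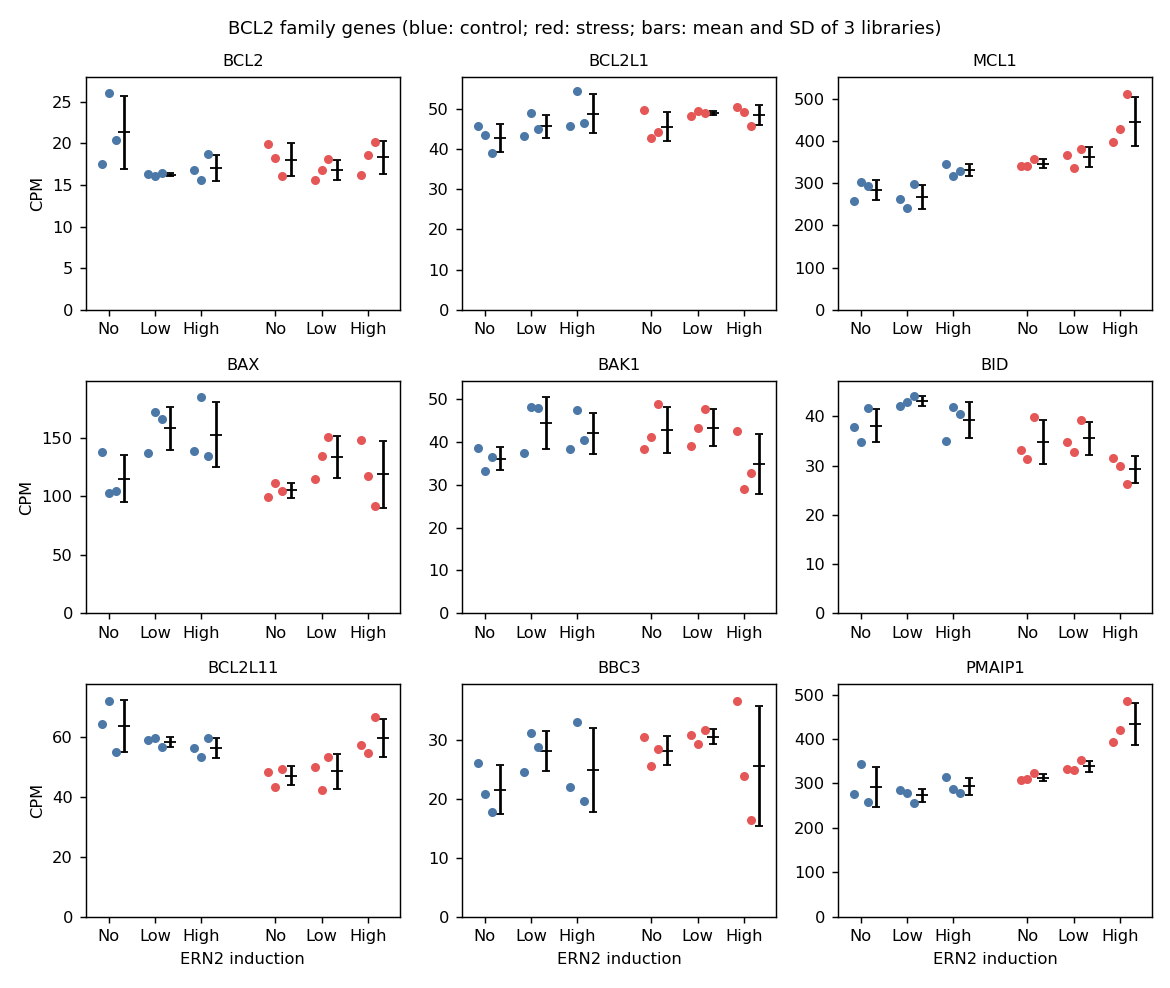
CPM of the 9 BCL2 family members in each of the 18 libraries by ERN2 induction, control in blue and stress in red, on linear axes that start at 0; bars give the mean and SD of 3 libraries. MCL1 and PMAIP1 reach 399 to 511 and 393 to 486 CPM in stressed High ERN2 libraries, above all their other libraries, while BCL2L1 stays between 39.0 and 54.3 CPM.

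The members' log2 fold changes for thapsigargin were split in sign at each dose. In No ERN2 cells 5 of the 10 log2 fold changes were above 0, with a median of 0.04 against -0.01 over all genes tested. In Low ERN2 cells 5 were above 0, with a median of 0.00 against -0.01, and in High ERN2 cells 6 were above 0, with a median of 0.04 against 0.00. High against No ERN2 in stressed cells gave 6 above 0, with a median of 0.05 against 0.04 over all genes. The exact permutation p for stress within dose was between 0.0253 and 0.787 for the 7 members other than MCL1, PMAIP1 and BID, unadjusted for the 10 genes tested. Of the 30 exact permutation tests between doses, of 10 members over 3 pairs of doses that share libraries and unadjusted as well, 5 gave the smallest p = 0.005, for TNFRSF10B and MCL1 with High against No and against Low ERN2 and for BID with High against Low ERN2. Any gene whose libraries separate in the same direction in control and in stressed cells reaches this exact permutation p. The share of all genes that do so was not counted. Another 4 were under 0.05, for Low against No ERN2 in BAX, in BCL2 (-0.24, exact permutation p = 0.035) and in BBC3 (0.26, exact permutation p = 0.04) and for High against Low ERN2 in PMAIP1 (0.23, exact permutation p = 0.015).

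The genes around the members were described from 4 lists written from general knowledge, with earlier results of these data known. Of the ATF4 and CHOP genes, 10 of 12 were called higher in No ERN2 cells, 10 of 12 in Low ERN2 cells and 4 of 12 in High ERN2 cells, where 6.45%, 1.16% and 0.18% of all genes were called higher. The list's median log2 fold changes were 2.13, 1.84 and 1.14 against -0.01, -0.01 and 0.00 over all genes. In High ERN2 cells DESeq2 called 10 of the 12 higher. DDIT3, the gene of CHOP, stood at 11.4, 9.17 and 9.31 CPM in No ERN2 control cells and at 153, 156 and 155 CPM under stress, a log2 fold change of 3.96 (SE 0.127). In High ERN2 cells DDIT3 stood at 17.7, 16.5 and 14.9 CPM and at 113, 81.2 and 90.5 CPM, a log2 fold change of 2.56 (SE 0.171). CHAC1, which breaks down glutathione, rose by 4.58 on the log2 scale in No ERN2 cells and by 3.04 in High ERN2 cells, and TRIB3, a pseudokinase induced by CHOP, rose by 2.73 in No ERN2 cells. In the same No ERN2 comparison, after 3 hours, the members named above as targets gave -0.03 (TNFRSF10B), -0.43 (BCL2L11) and 0.11 (PMAIP1). None of these passed in edgeR, and the TNFRSF10B and PMAIP1 libraries overlapped.

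High against No ERN2 in control cells gave 3 of 12 ATF4 and CHOP genes higher and 1 lower, where 8.33% of all genes were called in either direction, with CHAC1 at 1.11, PPP1R15A, a phosphatase subunit that reverses the PERK signal, at 0.68 and VLDLR, a lipoprotein receptor, at -0.89 on the log2 scale. In stressed cells it gave 0 higher and 2 lower (10.5% of all genes), DDIT3 at -0.71 and VLDLR at -1.29. High against Low ERN2 in stressed cells gave 1 lower (5.55% of all genes), DDIT3 at -0.72. In the interaction for High ERN2, 0 of the 12 were called in edgeR (0.0406% of all genes), with 8 lower at an unadjusted p under 0.05 (24.7% of all genes in either direction) and 6 called lower by DESeq2 (2.88%).

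In the death receptor pathway, 13 of 15 listed genes were tested. In edgeR TNFRSF10D and TNFRSF21 passed in some comparisons, never more than 1 of the 13 in any. For stress this was in No and Low ERN2 cells (11.2% and 1.45% of all genes). Between doses it was High against No ERN2 in control and stressed cells (8.33% and 10.5%) and High against Low ERN2 in stressed cells (5.55%). DESeq2 called 1, 2 and 3 lower for stress at No, Low and High ERN2 (16.4%, 7.8% and 5.64% of its genes). In control cells it called 1 lower for High against No and against Low ERN2 (10.8% and 5.7%). In stressed cells it called 2 lower for each (16.5% and 11.8%). TNFRSF10D, a decoy receptor that binds TRAIL without a working death domain, stood at 118, 122 and 118 CPM in No ERN2 control cells and at 40.3, 44.9 and 36.1 CPM under stress. Its log2 fold change was -1.55 (SE 0.115, adjusted p = 1.59e-06 in edgeR), and in Low ERN2 cells it was -1.13 (SE 0.140, adjusted p = 0.00182). In High ERN2 control cells TNFRSF10D stood at 72.9, 72.7 and 68.4 CPM, a log2 fold change of -0.78 against No ERN2 control cells (SE 0.10, adjusted p = 0.000142 in edgeR). Both No ERN2 comparisons of TNFRSF10D share the No ERN2 control libraries, and whether its response to thapsigargin differed from that of TNFRSF10B was not tested. TNFRSF21, death receptor 6, was lower in stressed High ERN2 cells than in stressed No ERN2 cells (-0.90, SE 0.170, adjusted p = 0.00250) and Low ERN2 cells (-0.83, SE 0.167, adjusted p = 0.00623 in edgeR). TNFRSF10A, death receptor 4, chosen after its values were seen, stood at 14.6, 13.2 and 15.4 CPM in stressed No ERN2 cells and at 11.8, 9.22 and 11.0 CPM in stressed High ERN2 cells. The 3 High ERN2 libraries lay below the other 3, with a log2 fold change of -0.43 that did not pass (adjusted p = 0.101 in edgeR). In control cells TNFRSF10A ran the other way, from 14.1 to 16.0 CPM with No ERN2 and from 16.5 to 21.3 CPM with High ERN2 (log2 fold change 0.22, adjusted p = 0.346 in edgeR), whereas TNFRSF10B was lower with High ERN2 in both conditions.

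Of 14 other BCL2 family genes, 10 were tested, and only thapsigargin in No ERN2 cells gave calls among them in edgeR, 2 of 10 where 11.2% of all genes were called. HRK, a BH3-only gene of neurons, rose by 1.30 on the log2 scale from a mean of 2.57 CPM (SE 0.194, adjusted p = 0.000534), and BMF, a BH3-only gene tied to the cytoskeleton, changed by -0.78 (SE 0.188, adjusted p = 0.00969 in edgeR). Of the p53 genes, 18 of 19 were tested in No ERN2 cells, where thapsigargin gave 3 higher and 4 lower calls (11.2% of all genes in either direction), with TP53INP1 at -1.27, PLK3 at 0.89 and AEN at 0.78 on the log2 scale. In Low and High ERN2 cells thapsigargin gave 0 calls among 19 p53 genes in edgeR (1.45% and 0.201% of all genes), with 2 higher and 4 lower at the low dose and 2 higher at the high dose at an unadjusted p under 0.05 (24.7% and 27%), and DESeq2 called 3 lower and 0 (7.8% and 5.64%). For High against No ERN2 in stressed cells 0 of 18 p53 genes were called in edgeR (10.5% of all genes), with 7 higher and 1 lower at an unadjusted p under 0.05 (35.6%) and 2 called higher by DESeq2 (16.5%).

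**Figure D4:**
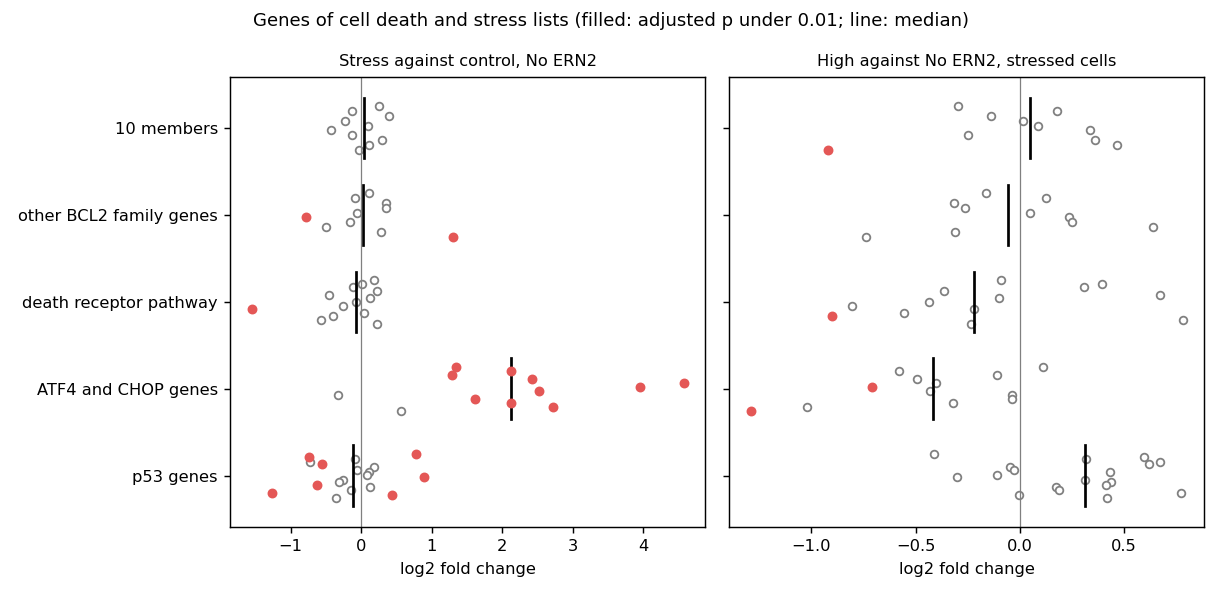
Log2 fold changes of the 10 members and the genes of 4 lists, each point a gene, filled where the adjusted p in edgeR is under 0.01, with the list's median as a line, for stress against control in No ERN2 cells (left) and High against No ERN2 in stressed cells (right). The ATF4 and CHOP genes lie to the right on the left panel (median 2.13), the 10 members lie near 0 (median 0.04), and TNFRSF10B is the filled member on the right panel at -0.92.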

How the data were processed

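RNA-Seq covered 18 libraries of HEK293doxERN2 cells in 6 groups of 3, grouped by the sample labels. The authors prepared stranded mRNA libraries, aligned single-end reads with STAR (hg38, per the submitters' processing notes) and deposited raw counts per gene symbol, with no normalization or filter. The aligner version, the annotation and how strand was treated are not given in the sources used here. All 18 columns were used and 0 columns of values were left unused.

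Each comparison used only its own groups. Genes were kept by filterByExpr (minimum count 10), normalized by TMM, and the quasi-likelihood test of edgeR 4.0.16 was run in R 4.3.3. Its p-values were Benjamini-Hochberg adjusted over all genes and the threshold was 0.01. The adjusted p of 0.01 is that of the study's methods. Standard errors were derived from the log2 fold change and its F statistic (size over root F), and 95% intervals are 1.96 standard errors each way. CPM used TMM factors of all 18 libraries, and their error is the SD. Exact permutation tests of single genes used log2 CPM, with labels exchanged within dose or within condition, since the smallest two-sided p for 3 libraries against 3 is 0.1. The smallest count of a member was 264 reads, for BCL2. How much of the spread between libraries came from counting was not tested for the members.

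The alternatives were DESeq2 1.42.0, RLE size factors, no filter, all 6 groups in 1 fit, a block for the replicate number, a threshold of 0.05 and each library left out. Library totals in place of TMM and the exact tests were added after the data were seen. Recovery was tested on simulated data with 200 changed genes. Each pair of replicates differed beyond sampling noise, with a chi-square per degree of freedom of 6.99 to 60.2. The replicate numbers come from the labels, which do not say what they share. Deviations of same-numbered libraries correlated above 0.1 for each of 3 numbers only in Low against No ERN2 under stress (0.402, 0.343 and 0.468), and the blocked value is given beside that result.

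The 10 members and the pathway lists were chosen with earlier results of these data known. All members are named, and of each list up to 3 genes with the largest log2 fold change past the threshold in a comparison. Of 5 lists, 4 are described and 1 is not reported here. Symbols in the file were matched to GENCODE release 29 and RefSeq (GRCh38.p14), with 2 list genes under older symbols. Plots were made in Python 3.11.15 with matplotlib 3.10.9.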

Additional observations from a re-analysis of the deposited data

How the results depend on the processing

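Of 432 log2 fold changes recomputed for members under the alternatives, 387 kept their direction and side of the threshold, 16 lost the call, 19 gained it and 10 changed sign. This tally took TNFRSF10B in every comparison, but each other member only where its unadjusted p in edgeR was under 0.05. BCL2L1 was not in the tally, and neither were changes near 0 of the other members. Whether those kept their sign was therefore not tested. All 10 sign changes were of TNFRSF10B where its change was near 0. With libraries left out in turn, its value ran from -0.129 to 0.0766 for stress in No ERN2 cells, from -0.205 to 0.0415 for stress in Low ERN2 cells, from -0.0211 to 0.0948 for Low against No ERN2 in control cells, from -0.0986 to 0.133 for the same in stressed cells (-0.00491 with library totals) and from -0.157 to 0.0863 for the interaction of Low ERN2 with stress.

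DESeq2 called 1 member for stress in No ERN2 cells (BCL2L11, with 16.4% of its genes) and 1 for stress in High ERN2 cells (PMAIP1, 5.64%). It called 1, TNFRSF10B, for High against Low ERN2 in control cells (5.7%) and in stressed cells (11.8%). For High against No ERN2 it called 1 in control cells (TNFRSF10B, 10.8%) and 2 in stressed cells (PMAIP1 and TNFRSF10B, 16.5%). All 6 groups in 1 fit gave 1, 0 and 2 members for stress in High ERN2 cells, High against No ERN2 in control cells and the same in stressed cells, and library totals gave 0 for High against No ERN2 in control cells. An adjusted p of 0.05 gave 1 member for stress in No ERN2 cells, 1 for stress in High ERN2 cells, 1 for High against Low ERN2 in control cells and 2 for High against No ERN2 in stressed cells. TNFRSF10B stayed the 1 member called for High against No ERN2 in control cells and High against Low ERN2 in stressed cells. The share of all genes is not given for the 0.05 threshold or for all 6 groups in 1 fit. Those member counts therefore cannot be set against it. With library totals, 181 genes were called higher and 1004 lower for High against No ERN2 in control cells.

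With libraries left out in turn, the members called ran from 0 to 3 for stress in High ERN2 cells and for High against No ERN2 in stressed cells, and from 0 to 1 for Low against No ERN2 in control cells, High against No ERN2 in control cells and High against Low ERN2 in stressed cells. In the same order, calls over all genes in these fits ran from 4 to 2568, 763 to 3950, 0 to 2743, 915 to 1397 and 42 to 2712. The 3 members were MCL1, PMAIP1 and TNFRSF10B without stressed High ERN2 replicate 1. The cause was not tested.

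The replicate block gave 3 members for stress in No ERN2 cells (MCL1, BCL2L11 and BBC3; 24.8% of all genes), 2 for stress in Low ERN2 cells (MCL1 and PMAIP1; 24.8%), 1 for High against Low ERN2 in control cells (TNFRSF10B; 8.41%), 1 for Low against No ERN2 in stressed cells (BAX; 3.89%), and 0 for High against No ERN2 in control cells (5.19%) and for High against Low ERN2 in stressed cells (2.65%), where TNFRSF10B had adjusted p-values of 0.0530 and 0.0164. Outside Low against No ERN2 under stress, same-numbered libraries correlated above 0.1 for only some of the numbers. By replicate 1, 2 and 3 the correlations were 0.0828, 0.204 and 0.272 for stress in No ERN2 cells. In Low ERN2 cells they were 0.499, -0.0332 and 0.439. For High against Low ERN2 they were 0.521, 0.281 and -0.0175 in control and -0.264, 0.108 and -0.280 in stressed cells. For High against No ERN2 control cells they were -0.0919, -0.369 and 0.122. The labels do not say what a number shares.

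Calls over all genes moved by more than members did. With all libraries kept they ran from 1273 to 3571 (1611 as reported) for stress in No ERN2 cells, from 188 to 3620 (212) in Low and from 4 to 941 (29) in High ERN2 cells. For Low against No ERN2 they ran from 3 to 623 (28) in control and from 0 to 564 (0) in stressed cells, for High against No ERN2 from 750 to 1609 (1203) and from 1390 to 2641 (1512), and for High against Low ERN2 from 290 to 1224 (356) and from 384 to 2054 (805). The interactions gave 3 to 341 (6) for High and 0 to 2 (0) for Low ERN2. With libraries left out they ran from 731 to 1901, from 28 to 494 and from 4 to 2568 for stress at No, Low and High ERN2, from 0 to 2743 for Low against No ERN2 in control cells (2743 without Low ERN2 control replicate 1), from 763 to 3950 for High against No ERN2 in stressed cells, from 0 to 496 and 42 to 2712 for High against Low ERN2 in control and stressed cells, and from 2 to 1286 for the interaction of High ERN2. Library totals moved the median of all genes in that interaction from 0.04 to -0.14 and the calls for stress in High ERN2 cells from 26 higher and 3 lower to 28 and 23.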
